A study of Mus musculus with 4 samples.

Results

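Distal nephron precursor barcodes were taken from single-cell libraries of the embryonic mouse kidney by a rule on raw counts. A barcode, meaning the set of reads that share one bead sequence and so usually one cell, was a member when it met 3 conditions. At most 10% of its unique molecular identifiers (UMIs, the counted transcript tags) were mitochondrial. It held at least 2 UMIs over Sim1, Sim2, Papss2, Sall3, Tfap2b and Tspan8. It held none of Slc12a1, Tmem52b, Sostdc1 and Ret. The rule found 610 members among 12399 barcodes within the mitochondrial limit, called eligible here, and 15144 barcodes in all.

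The study profiled E14.5 mouse embryonic kidneys by Drop-seq, which captures the 3' end of transcripts on barcoded beads. There were 2 wildtype libraries and 2 libraries from mutants labelled Hoxa9,10,11 and Hoxd9,10,11 -/-, all on a mixed background, mostly CD-1 and 129. The structure of the mutant alleles and the number of embryos behind a library are not given in the sources used here. Since nothing says that the libraries of a group came from separate animals, p-values measure only the spread between these libraries.

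Nephrons arise from progenitors that are induced beside the tips of the ureteric bud and pass through the renal vesicle, comma-shaped and S-shaped body. The distal end of that structure lies next to the ureteric tip, joins it, and gives rise to the thick ascending limb, distal convoluted tubule and connecting segment. Sim1 and Sim2 encode basic helix-loop-helix PAS transcription factors, Sall3 a zinc-finger factor, and Tfap2b an AP-2 factor needed for distal tubules. Papss2 makes the sulfate donor for sulfation, and Tspan8 is a tetraspanin of epithelial membranes. Among the excluded genes, Slc12a1 is the sodium-potassium-chloride cotransporter of the thick ascending limb, Sostdc1 is a secreted BMP and Wnt antagonist, and Ret is the GDNF receptor of the ureteric tip.

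On mm10, with GENCODE vM21, Sim1 lies on chromosome 10 at 50894754 to 50989152 and Tspan8 on the same chromosome at 115816832 to 115849893, both on the plus strand. Sim2 lies on chromosome 16 at 94084931 to 94127032, Papss2 on chromosome 19 at 32595790 to 32667187 and Tfap2b on chromosome 1 at 19208914 to 19238576, also on the plus strand. All are protein-coding genes.

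The libraries differed in size and quality. Deposited barcodes numbered 2113 and 5542 in wildtype 1 and 2, and 1061 and 6428 in mutant 1 and 2, with total counts from 3572346 to 24834658. Barcodes over the mitochondrial limit made up 7.76% and 9.06% of wildtype libraries, and mutant libraries reached 19.6% and 29.1%. Malat1, a nuclear RNA that serves as a sign of damaged cells, took 2303 and 1877 CPM (UMIs scaled to a common library total) of the UMIs in wildtype members, and 6568 and 5247 CPM in mutant members. Haemoglobin took 1.03% of member UMIs in wildtype 2 and at most 0.237% elsewhere. Mutant 1 stood apart, with 42 members, the smallest share of members with Sim1 or Sim2 and the highest summed collecting duct markers. Any pair of libraries shared at most 2 barcode sequences.

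Members made up 5.54% of eligible barcodes in wildtype 1 (108 members, exact 95% binomial interval 4.57% to 6.65%) and 4.74% in wildtype 2 (239 members, 4.17% to 5.37%). The share was 4.92% in mutant 1 (42 members) and 4.85% in mutant 2 (221 members). Both mutant shares fell between the wildtype shares. The means were 5.14% ± 0.565 (SD, n = 2) and 4.89% ± 0.0524 (SD, n = 2), and the mutant mean was lower by 0.255 percentage points (exact two-sided permutation test over libraries, p = 1, where 2 against 2 libraries cannot give less than 0.333). Intervals cover counting error only. Among barcodes with at least 2000 UMIs, each thinned to 2000, the shares were 4.01%, 3.39%, 2.99% and 3.60% in the same order. Shallower barcodes were left out there, which kept 1445, 3366, 502 and 2919 of 1949, 5040, 853 and 4557 eligible barcodes. Members were deeper than eligible barcodes as a whole, with median UMIs of 5169.5, 7000, 5777 and 5537 against 3597, 3475.5, 2465 and 3003.

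**Figure D1:**
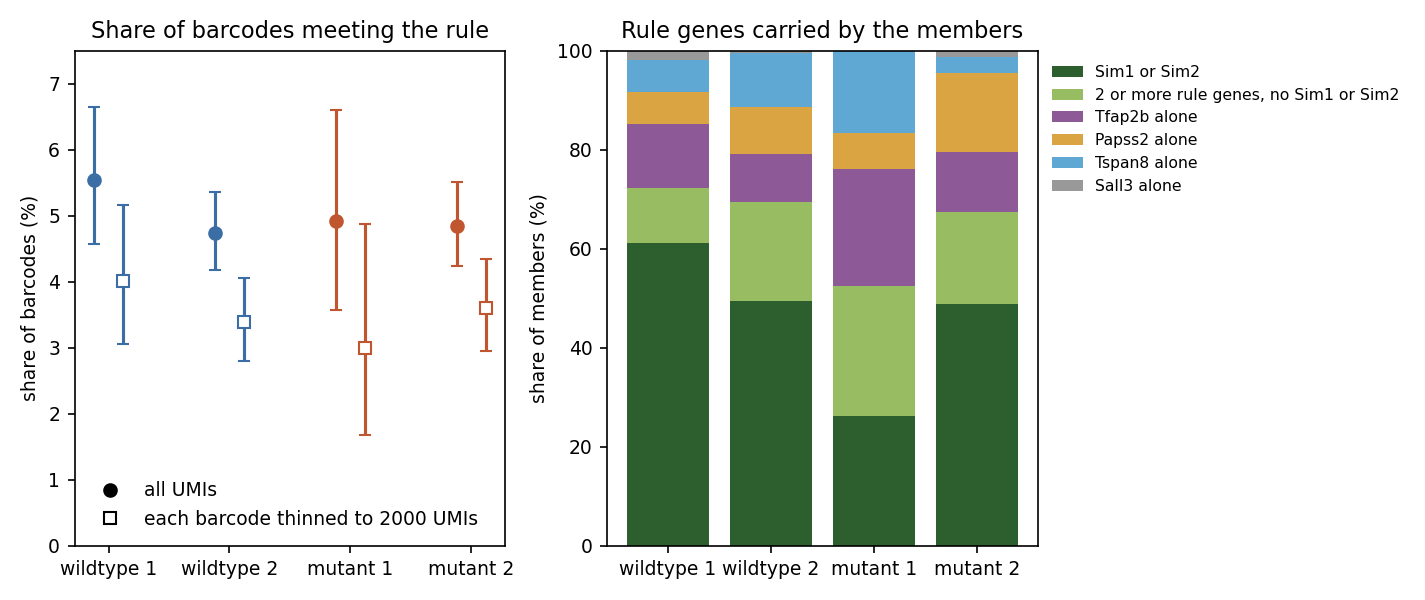
Left, the share (%) of eligible barcodes that met the rule, with exact 95% binomial intervals, over all UMIs. Open squares show only barcodes with at least 2000 UMIs, thinned to 2000. Right, the make-up (% of members) by rule genes held. Unthinned shares lie between 4.74% and 5.54%, and members with Sim1 or Sim2 make up 26.2% of those in mutant 1 against 48.9% to 61.1% elsewhere.

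The excluded genes shaped the set. Of 1120 eligible barcodes with at least 2 UMIs over the rule genes, 510 (45.5%) held an excluded gene and were left out, 386 of them with Sostdc1, 264 with Tmem52b, 181 with Slc12a1 and 61 with Ret. A barcode could hold several. At the threshold, 201 members had exactly 2 rule UMIs, while 824 barcodes without an excluded gene had 1 and stayed outside. Barcodes of other lineages also reached 2 rule UMIs, here counted without regard to the excluded genes. Of those with at least 5 immune UMIs, 5.71%, 4.35%, 0% and 4.84% did, in wildtype 1, wildtype 2, mutant 1 and mutant 2. Of those with at least 20% haemoglobin, 0 of 6, 7 of 101, 0 of 1 and 1 of 10 did. Among all eligible barcodes it was 9.95%, 8.47%, 8.68% and 9.33%. The part of free RNA in such low counts was not tested.

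The rule genes chose the members, so their levels are a description. Sim1 was found in 49.1%, 41.4%, 19.0% and 43.4% of members in wildtype 1, wildtype 2, mutant 1 and mutant 2, the order used for every series of 4 values. Papss2 was found in 39.8%, 49.0%, 26.2% and 63.8%, highest in mutant 2 and lowest in mutant 1. Tfap2b was found in 56.5%, 51.0%, 64.3% and 46.2%. Tspan8 was found in 27.8%, 42.7%, 42.9% and 17.2%, Sall3 in 9.52% to 23.1% and Sim2 in 7.14% to 14.8%. Tfap2b is not particular to the members. In unscaled CPM it stood at 271, 180, 216 and 199 in them. Loop and distal tubule barcodes, defined below, stood at 331, 296, 956 and 411. Of those loop barcodes, 20.8%, 26.8%, 50% and 31.5% reached 2 rule UMIs. Members held the genes in combination: 151 had Sim1 with Papss2, 125 Sim1 with Tfap2b, 114 Papss2 with Tfap2b and 95 Tfap2b with Tspan8, while 218 held a single rule gene.

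The label was checked against other genes. At least 1 UMI of 14 nephron-lineage genes was present in 97.2%, 95.4%, 92.9% and 87.8% of members. Among barcodes with at least 2000 UMIs, each thinned to 2000, these shares were 92.6%, 92.8%, 88.6% and 85.6%. They were 49.4%, 52.0%, 39.8% and 43.0% in the other eligible barcodes. Loop and distal tubule barcodes, defined below, stood at 89.5%, 75.0%, 100% and 60.5% (19, 32, 6 and 43 barcodes), so the list is not particular to the members. Aqp2, the water channel of the collecting duct, had a UMI in 2 members in all. Sox10, a neural crest factor, had none. Six2, the factor that marks uncommitted nephron progenitors, was present in 5, 14, 1 and 1 members. Other markers of these cell types were found in more members. Krt19 and Gata3, both on the collecting duct marker list, were present in 21 and 19 of the 47 members with Tspan8 as sole rule gene. Chgb, a sympathetic marker, was present in 23 of 74 with Tfap2b as sole rule gene. Cited1, a progenitor cofactor, was present in 44 of 303 with Sim1 or Sim2.

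Members fell into subsets by the rule genes they held. A total of 303 held Sim1 or Sim2, 112 held at least 2 other rule genes, 74 held Tfap2b alone, 68 Papss2 alone, 47 Tspan8 alone and 6 Sall3 alone. The following levels are pooled over libraries and carry no test. Lhx1, a homeobox factor of the early nephron, stood at 731 CPM in the Sim subset and 747 CPM with Papss2 alone, against 91.6 CPM with Tspan8 alone. Krt19, a keratin of mature ureteric epithelium, stood at 350 CPM with Tspan8 alone and 5.02 CPM in the Sim subset. Podxl, a podocyte surface protein, stood at 151 CPM with Tspan8 alone, and its UMIs there came mostly from wildtype 1 (12 UMIs) and mutant 2 (32 UMIs). Chgb, a protein of secretory granules in neuroendocrine cells, stood at 4950 CPM with Tfap2b alone and 1.67 CPM in the Sim subset. A nephron-lineage UMI was present in 301 of 303 Sim members and in 55 of 74 with Tfap2b alone.

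**Figure D2:**
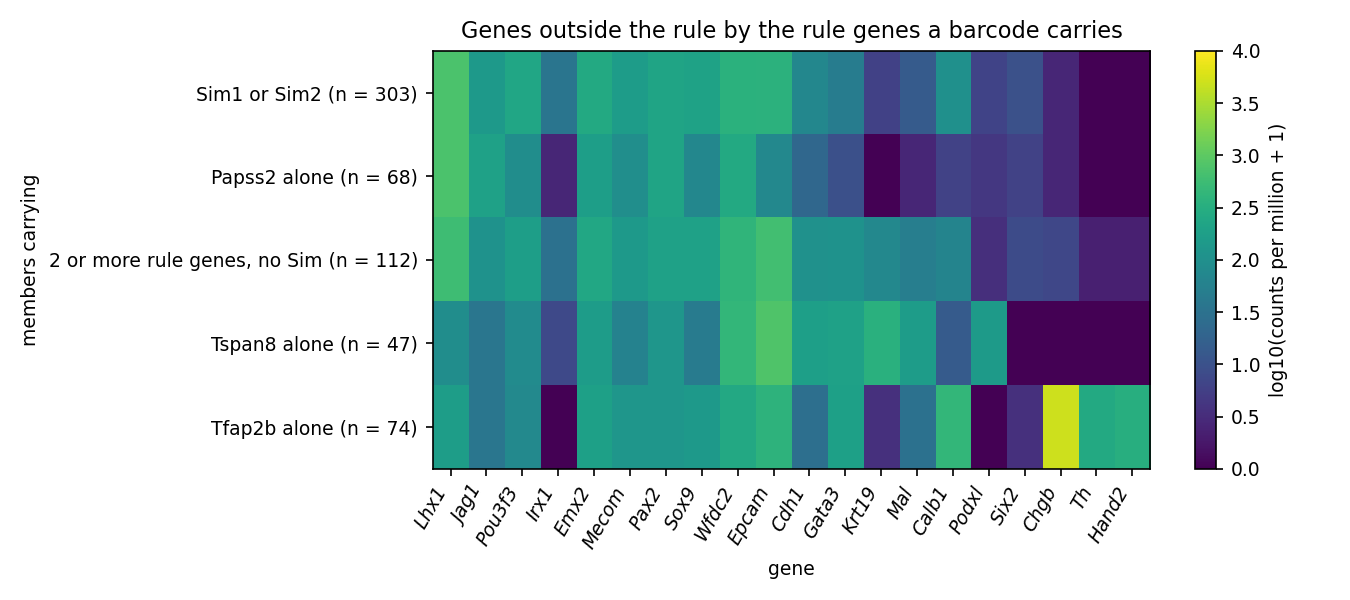
Colour shows log10(CPM + 1) of genes outside the rule (columns) in subsets of members by rule genes held (rows), pooled over the 4 libraries. Lhx1 is high with Sim1 or Sim2 and with Papss2 alone, Krt19 is high with Tspan8 alone, and Chgb is high with Tfap2b alone.

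Members with Sim1 or Sim2 were compared with the other members of the same library. Those others entered the set only through Papss2, Sall3, Tfap2b and Tspan8, and include the Tspan8 and Tfap2b subsets above. The split is by rule genes, and the part of that choice in the differences was not tested. Of 6941 genes tested by edgeR's quasi-likelihood method, 119 (1.71%) had a Benjamini-Hochberg adjusted p under 0.05, here called passing, 33 higher (0.475%) and 86 lower (1.24%) with Sim. Nephron transcription factors were among the higher genes, and keratins, claudins and collecting duct markers among the lower ones. Pou3f3, a POU factor needed for the thick ascending limb, stood at 302, 155, 262 and 335 CPM with Sim and 180, 94.3, 111 and 158 CPM without, higher in every library (log2 difference 0.90 ± 0.14 SE, adjusted p = 0.000121). Lhx1 stood at 878, 624, 502 and 958 CPM against 646, 459, 219 and 658 CPM (0.53 ± 0.10, adjusted p = 0.00138). Itga6, a laminin-binding integrin, rose by 1.10 ± 0.19, and Enpp2, the enzyme autotaxin, by 1.28 ± 0.22, each in all 4 libraries. Irx1, an Iroquois factor of the intermediate nephron, stood at 36.3, 38.1, 21.8 and 37.9 CPM against 7.34, 16.9, 7.96 and 16.3 CPM (1.33 ± 0.35, adjusted p = 0.0392).

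Krt18, a keratin of simple epithelia, stood at 87.1, 58.1, 218 and 51.5 CPM with Sim against 224, 319, 577 and 87.9 CPM (log2 difference -1.71 ± 0.22, adjusted p = 0.00022). Every library showed it lower with Sim, and mutant 1 had the highest level in either subset. Krt8, the partner of Krt18, fell by 1.68, Cldn8, a claudin of the distal nephron and collecting duct, by 1.79, and Gata3, a factor of the ureteric and connecting segment, by 1.03 on the log2 scale. Of the fixed lists, nephron segment transcription factors had 4 of 13 higher and 1 lower (median 0.38). Ureteric stalk and collecting duct markers had 0 of 6 higher and 4 lower (median -1.37). Epithelial adhesion and junction genes had 1 of 28 higher and 5 lower. The median over all genes was -0.00. Median depth was 5169.5, 8109, 2652 and 6408.5 UMIs with Sim and 4998, 5713, 5937 and 5014 without, and the part of depth was not tested.

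These calls varied with the libraries. Without mutant 2 the count was 59, and DESeq2 called 43 and a threshold of 3 rule UMIs left 68. Emx2 (adjusted p 0.0392) and the Notch ligand Dll1 (0.0206) also rose with Sim, as did Dkk1, Bmp4, Lama1, Gcnt1 and Top2a, but each lost its call under DESeq2 and without at least 1 library. Irx1 lost its call under DESeq2 (adjusted p = 0.331) and without wildtype 1 (0.126). Gata3 and Fxyd4 missed the threshold without wildtype 2 (0.0582 and 0.0585), Mal and Gata2 without a library, and Enpp2 without mutant 2 (0.0511). Krt8 (0.0570) and Krt18 (0.239) missed it at 3 rule UMIs. Pou3f3, Lhx1, Itga6 and Cldn8 passed under every alternative run.

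**Figure D3:**
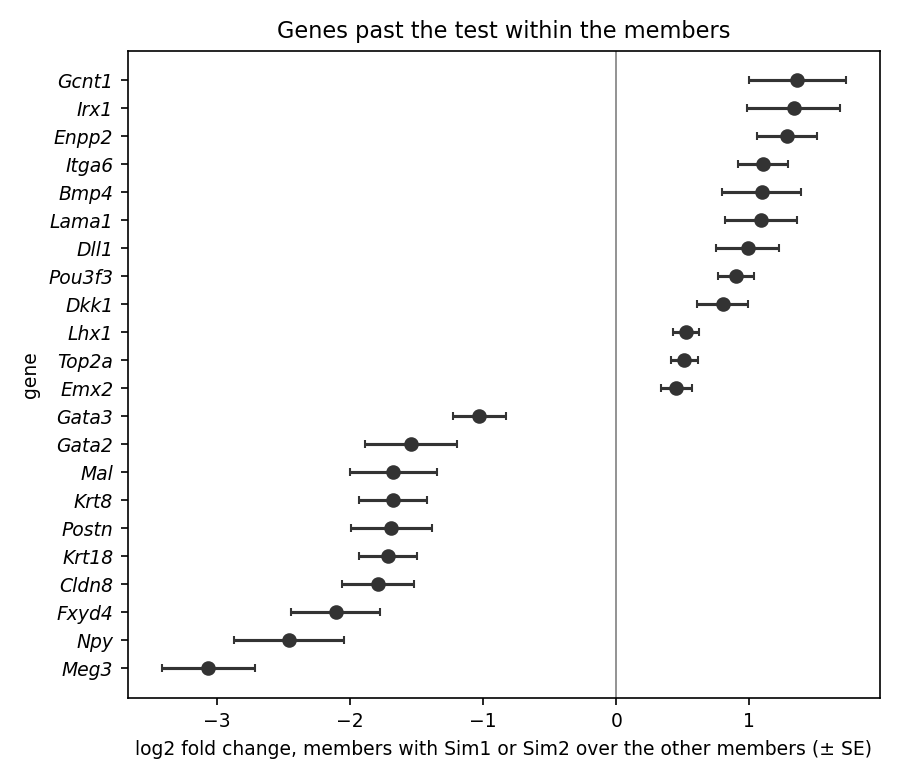
Points are log2 fold changes of genes past the test, members with Sim1 or Sim2 over the other members, and bars are standard errors from edgeR. Pou3f3 lies at 0.90 and Lhx1 at 0.53, while Krt18 lies at -1.71 and Cldn8 at -1.79.

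The members were next set against 3 other classes of barcodes in the same libraries, to show where they differ from related cells. Genes of the rules on either side were left out. The classes were defined by rules of at least 2 UMIs, and members and barcodes that met more than one of these rules were left out, so each class holds barcodes that met its own rule alone. Members were not held to that condition, and its part in the differences was not tested. The loop class also held genes of other lineages, as given below. The ureteric and early nephron classes proved mixed, so all were repeated with rules on fewer genes, chosen after the data were seen. The ureteric class then held 35, 77, 10 and 21 barcodes and the early nephron class 191, 516, 79 and 431. The loop class held 39, 60, 12 and 88, and was larger in 3 libraries since fewer barcodes met another rule too. Genes described as higher or lower were called under both rules, except where stated.

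Loop and distal tubule barcodes (at least 2 UMIs over Slc12a1, Tmem52b, Sostdc1 and Umod, and fewer than 2 over each of the other rules) numbered 24, 41, 14 and 73, with median depths of 3079, 3556, 1730 and 2215 UMIs. Of 4633 genes, 574 (12.4%) passed, 294 higher (6.35%) and 280 lower (6.04%) in members. Developmental regulators and genes of DNA replication were higher in members, and the sodium pump and other transport genes were lower. Proximal tubule markers had 0 of 3 higher and 3 lower (median -3.55), and stroma markers 0 of 8 higher and 1 lower (median -1.99). Among barcodes with at least 2000 UMIs, thinned to 2000, loop barcodes held on average 3.26, 3.44, 0.333 and 17.3 stroma UMIs. Members treated alike held 1.04, 1.02, 3.63 and 2.69. The part of such mixture in the differences was not tested. Uncx, a homeobox factor, stood at 165, 367, 175 and 462 CPM in members and 0, 36.8, 60.5 and 46.7 CPM in loop barcodes, with no overlap (log2 difference 3.27 ± 0.33, adjusted p = 3.4e-06). Sfrp2, a secreted modulator of Wnt signalling, stood at 192, 546, 269 and 644 CPM against 42.5, 132, 151 and 104 CPM (2.16 ± 0.25). Pax2, a paired-box factor of the nephron lineage, stood at 199, 280, 255 and 150 CPM against 56.7, 58.8, 121 and 62.2 CPM (1.65 ± 0.28). Oraov1 rose by 2.80, Prnp, the prion protein gene, by 2.37 and Fgfr1, a fibroblast growth factor receptor, by 1.40 on the log2 scale.

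Atp1b1, the beta subunit of the sodium pump, stood at 241, 218, 382 and 320 CPM in members and 1928, 1735, 1966 and 1353 CPM in loop barcodes (log2 difference -2.61 ± 0.16, adjusted p = 5.25e-09). The groups did not overlap. The loop and collecting duct gene Tmem213 fell by 3.38, Mal by 2.27 and the metal-binding gene Mt1 by 3.72. Fxyd2, the pump's gamma subunit, stood at 74.1, 12.3, 10.9 and 31.3 CPM against 1332, 1647, 484 and 404 CPM (-4.98 ± 0.77, adjusted p = 0.0364). Distal nephron and loop transport genes had 0 of 10 higher and 6 lower (median -1.66), against a median of 0.04 over all genes. By rule, members held none of Slc12a1, Tmem52b and Sostdc1, while loop barcodes were chosen by these genes and Umod. Lower transport genes in members may thus follow from that choice, and its part was not tested. S phase genes had 8 of 16 higher and none lower (median 1.10), with Pcna, the replication clamp, at 689, 426, 207 and 394 CPM against 198, 154, 60.5 and 150 CPM. G2 and M phase genes had 7 of 20 higher and none lower (median 0.89). Under the shorter rule Ube2c of that list missed the threshold (adjusted p = 0.268).

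The number of calls fell to 297 without wildtype 1 and 281 without wildtype 2 and rose to 928 without mutant 1. Lef1, Cdh4 and Efna5, genes of early nephron induction or adhesion, were higher in members by 2.84, 2.24 and 2.07, and missed the threshold without a wildtype library (adjusted p from 0.0527 to 0.0814), Lef1 also under DESeq2 (0.0660). Fxyd2 missed it without wildtype 1 (0.126) or mutant 1 (0.111), Wfdc15b without wildtype 2 (0.0753), and Hoxd9 and Hoxd10, lower in members by 1.13 and 1.19, under DESeq2 and without several libraries.

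Ureteric bud barcodes (at least 2 UMIs over Ret, Wnt11, Wnt7b, Wnt9b, Hoxb7 and Krt23) numbered 40, 103, 23 and 51. They also held stromal genes: Snai2, a factor of mesenchyme, stood at 54.7, 74.9, 147 and 142 CPM in them and 7.31, 23.2, 33.9 and 16.4 CPM in members. Among barcodes with at least 2000 UMIs, thinned to 2000, 60.6%, 53.7%, 13.3% and 11.4% of ureteric barcodes held a nephron progenitor UMI. In members treated alike it was 16.8%, 20.7%, 5.71% and 13.3%. Of 6621 genes, 202 (3.05%) passed, 93 higher (1.40%) and 109 lower (1.65%) in members. Sfrp2 stood at 181, 516, 251 and 597 CPM in members and 26.7 to 68.8 CPM in ureteric barcodes (log2 difference 3.17 ± 0.21, adjusted p = 2.67e-10). Epha4, an ephrin receptor, stood at 192, 146, 44.1 and 171 CPM against 27.3, 17.8, 26.7 and 17.2 CPM (2.88 ± 0.31). Lgr5, the R-spondin receptor and Wnt target, stood at 32.2, 49.5, 30.5 and 26.1 CPM against 4.56, 7.14, 0 and 0 CPM (3.11 ± 0.56, adjusted p = 0.00112). The groups did not overlap for these 3 genes. Enpp2 rose by 2.48, Cpb2 by 2.70, Oraov1 by 3.48 and Pax8, a paired-box factor of the nephron lineage, by 1.92.

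Early nephron induction genes had 4 of 5 higher and Notch pathway genes 3 of 7, with none lower. Bmp2 stood at 59.9, 110, 6.78 and 38.0 CPM against 0, 3.57, 26.7 and 0 CPM, and mutant 1 went the other way. Its call was lost under DESeq2 (adjusted p = 0.310), as were those of the Notch target Hey1 and of Notch1, which also missed the threshold without wildtype 1 (0.109 and 0.326). Prnp missed it without wildtype 2 (0.147). Nephron segment transcription factors had 6 of 9 higher, but Pou3f3 (2.32) and Emx2 (1.66) were not called under the shorter rule, where their log2 differences were 0.39 and -0.20 (adjusted p 0.391 and 0.733). Without wildtype 2 the count of calls was 118. Of the 47 genes called under both rules, 41 had the same direction.

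Early nephron barcodes (at least 2 UMIs over Lhx1, Jag1, Dll1, Wnt4, Fgf8 and Ccnd1) numbered 617, 1571, 152 and 1210. The class was mixed, since all 9 tested endothelial markers were lower in members. Of 10664 genes, 1299 (12.2%) passed, 571 higher (5.35%) and 728 lower (6.83%) in members. Epithelial genes and segment transcription factors were higher in members and progenitor genes were lower. Pou3f3 stood at 238, 122, 125 and 234 CPM in members and 29.4, 16.6, 30.0 and 33.8 CPM in early nephron barcodes (log2 difference 2.81 ± 0.13, adjusted p = 1.62e-10). Mecom, a zinc-finger factor of distal segments, stood at 193, 122, 112 and 146 CPM against 50.2, 32.0, 47.2 and 43.6 CPM (1.80 ± 0.12). Gata3 stood at 109, 56.8, 227 and 49.6 CPM against 16.7, 11.1, 14.3 and 7.77 CPM (2.75 ± 0.19). Nephron segment transcription factors had 14 of 17 higher and none lower (median 2.16).

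Epcam, the epithelial adhesion molecule, stood at 301, 466, 735 and 316 CPM in members and 33.3, 76.8, 104 and 51.5 CPM in early nephron barcodes (log2 difference 2.76 ± 0.10, adjusted p = 1.79e-11). The junction list had 27 of 31 higher and 3 lower, with Cldn4 higher by 4.14, Cldn8 by 4.10, Krt19 by 4.39 and Krt7 by 3.97. Fxyd4, a regulator of the sodium pump in collecting duct, stood at 20.5, 35.0, 308 and 10.2 CPM against 1.69, 1.31, 5.72 and 0.747 CPM (4.57 ± 0.32), so mutant 1 carried the highest level in either class. Lgr5 stood at 30.1, 47.7, 28.0 and 23.8 CPM against 5.08, 4.72, 4.29 and 3.74 CPM (2.91 ± 0.25). Etv4 and Etv5, factors downstream of GDNF and fibroblast growth factors, rose by 1.46 and 1.65.

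Nephron progenitor markers had none of 9 higher and 6 lower. Osr2, a factor of the proximal and medial S-shaped body, stood at 19.2, 20.3, 6.23 and 39.4 CPM against 54.8, 43.0, 54.3 and 58.4 CPM (-1.07 ± 0.21). Wt1, the podocyte and progenitor factor, fell by 1.51 and Tmem100 by 1.42. Wt1 missed the threshold without mutant 2 (adjusted p = 0.0872) and Tmem100 without wildtype 2 (0.0569), and Emx2, higher by 1.48, was not called under the shorter rule (0.358). The count of calls was 703 without wildtype 2, 776 without mutant 2, 2012 without mutant 1 and 297 under the shorter rule, where 229 were shared and 226 of those had the same direction.

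**Figure D4:**
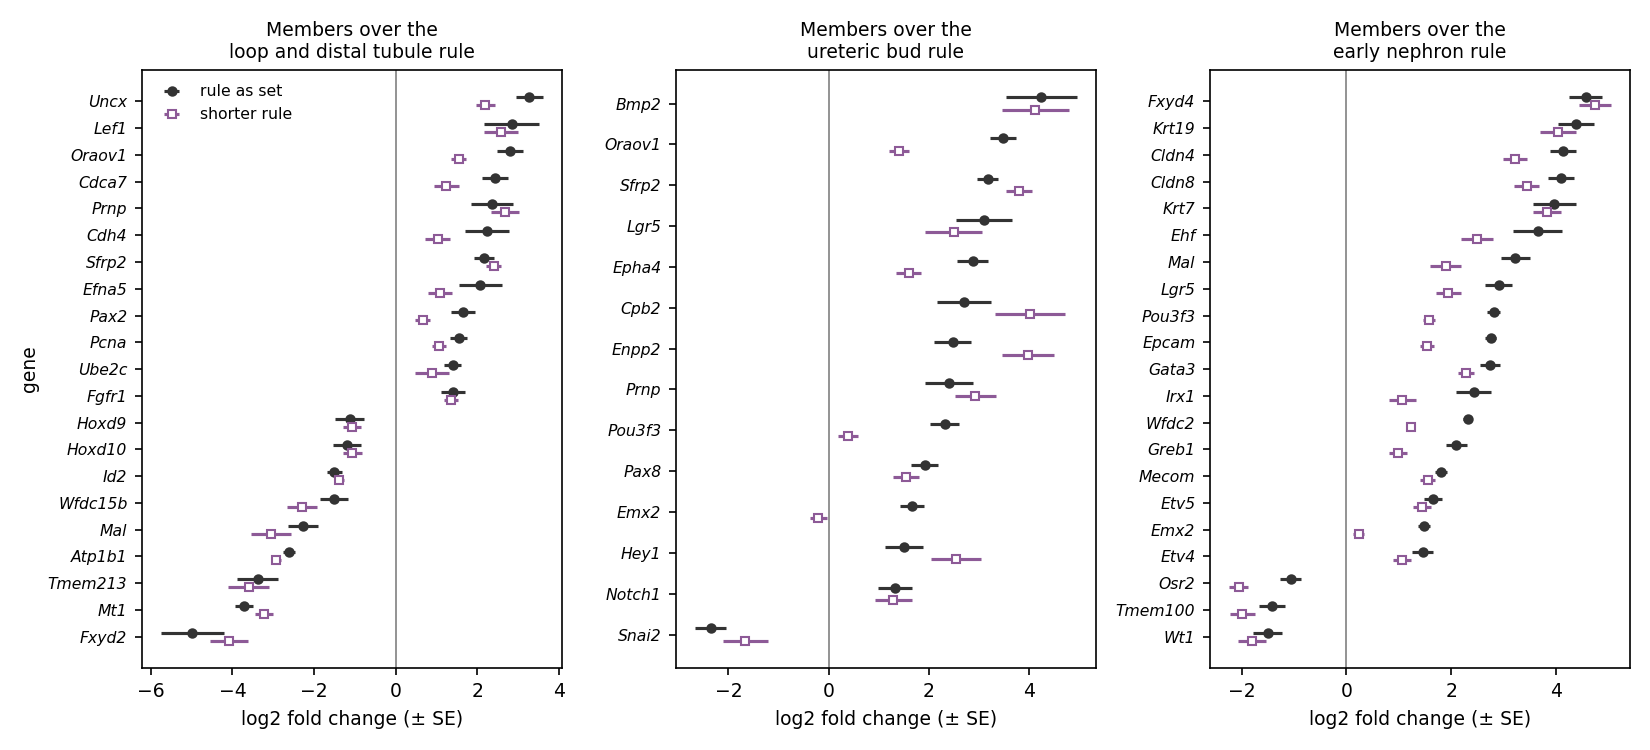
Log2 differences of named genes between members and the 3 comparison classes, with standard errors from edgeR, for the rule as set (filled) and the shorter rule (open). Atp1b1 is lower in members than in loop and distal tubule barcodes by 2.61, and Pou3f3 is higher than in early nephron barcodes by 2.81.

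The genotypes were compared within the members, after a look at the targeted genes. Hoxa9 stood at 148, 195, 50.9 and 170 CPM, Hoxa10 at 127, 193, 66.8 and 120 CPM and Hoxa11 at 29.2, 57.7, 3.18 and 34.9 CPM. Hoxd9 stood at 20.9, 54.1, 60.4 and 51.6 CPM, Hoxd10 at 41.8, 31.4, 54.1 and 58.6 CPM and Hoxd11 at 57.1, 42.8, 118 and 197 CPM. None of the 6 passed the test, and 3' tags of all 6 were counted in both mutant libraries. Without the allele structures these tags do not check the genotype. Hoxd11 was higher in both mutant libraries (1.70 ± 0.42, adjusted p = 0.254) and passed without mutant 1 (0.0102), while Hoxa11 passed as lower without mutant 2 (0.0294).

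Of 9418 genes tested in members, 21 (0.223%) passed and all 21 were higher in mutants. None was lower, while 11 of 65 were lower with no filter on low counts, and 17, 15, 4 and 25 were lower without wildtype 1, wildtype 2, mutant 1 and mutant 2. At an unadjusted p under 0.05 there were 378 in either direction, and DESeq2 called 25, none lower. Among them were 5 of 12 tested neural crest and sympathetic markers. Sympathetic neurons and chromaffin cells make catecholamines and store them in granules. Chgb stood at 1.39 and 27.3 CPM in wildtype and 1190 and 1069 CPM in mutant libraries (log2 fold change 6.08 ± 0.84, adjusted p = 0.0294). Chga, its relative, stood at 1.39 and 5.67 against 220 and 254 CPM (5.78 ± 0.54, adjusted p = 0.000416). Th, the rate-limiting enzyme of catecholamine synthesis, stood at 0 and 3.09 against 41.4 and 60.7 CPM (4.56 ± 0.71, adjusted p = 0.013). For these genes the genotypes did not overlap.

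Dbh, which turns dopamine into noradrenaline, stood at 2.79 and 4.64 against 66.8 and 59.3 CPM (3.92 ± 0.56). Hand2 and Phox2a, transcription factors of the sympathetic lineage, rose by 5.94 ± 0.70 and 5.69 ± 0.93. Isl1, a LIM factor of neurons, and Nap1l5 had no UMI in either wildtype library and were at least 19.7-fold and 27.4-fold higher in mutants, with a floor of 3 counts over the wildtype group. Slc18a1 and Slc18a2, the vesicular monoamine transporters, and Snap25 and Syt1 of vesicle release were also among the 21. So were Npy, the neuropeptide, Meg3, a long non-coding RNA, Rgs5, Rgs4, Agtr2, Adm, Dgkk, Gap43 and Sytl4.

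Catecholamine genes have cyclic AMP response elements among their known promoter features, so the promoters of the 21 genes were searched for TGACGTCA, a choice made after the genes were known. The motif is its own reverse complement, so a match covers both strands. RefSeq promoters on GRCm38.p6, the 250 bases before the start, were available for 18 of the 21 genes, and 3 of these genes held the motif. Of all promoters, 508 of 32851 (1.55%) held it. That share is per promoter and the count above is per gene, so they are not like measures, and enrichment was not tested. The windows printed here show it in capitals, as a description of these letters and not of a site in use. That of Chgb is at chr2:132781559-132781588 on the plus strand and lies within an exon of Chgb in GENCODE vM21. That of Meg3 is at chr12:109540928-109540957 on the plus strand and that of Th at chr7:142900022-142900051 on the minus strand, both outside exons. The first base of the motif lies 72, 57 and 45 bases before the RefSeq start.
Chgb: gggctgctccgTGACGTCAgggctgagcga
Meg3: gcagaatgcgcTGACGTCAaagaccacccc
Th: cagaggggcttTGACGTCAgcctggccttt

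Chgb had a UMI in 1, 2, 4 and 24 members. Barcodes with at least 2 UMIs over a set of sympathetic markers, among them Th, Dbh, Hand2, Chga and Chgb, numbered 1 and 2 among wildtype members and 5 and 17 among mutant members, or 0.926%, 0.837%, 11.9% and 7.69%. All these 25 barcodes had Tfap2b, 24 had it as their sole rule gene, none had Sim1 or Sim2, and 14 had no nephron-lineage UMI. Tfap2b is known from neural crest derivatives as well as from the distal nephron. Among the other eligible barcodes the shares were 0.163%, 0.0417%, 0.863% and 1.64%, also higher in the mutant libraries. The neural crest factor Sox10 was at 0 in members of every library.

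Without the 25 barcodes, a setting chosen after the data were seen, no gene passed edgeR's test between genotypes, and 303 had an unadjusted p under 0.05. Those barcodes were chosen by genes among the ones tested, so the loss of those calls follows from the choice and is a description. DESeq2 was not run on that set. When a nephron-lineage UMI was required 1 gene passed, and without the barcodes of highest doublet score 13 did. Chgb then missed the threshold (adjusted p = 0.0553), as did Phox2a, Gap43, Isl1, Npy and Sytl4, and DESeq2 did not call Phox2a, Agtr2 and Slc18a1. Leaving out 1 library gave counts from 55 to 165, the highest without mutant 2, and Npy missed the threshold without wildtype 1 (0.0537).

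**Figure D5:**
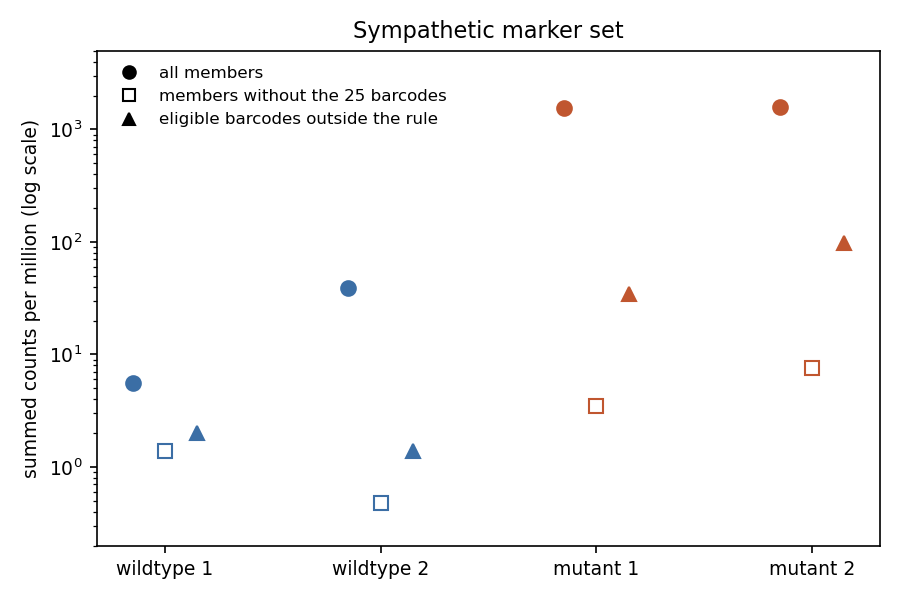
Sympathetic genes by library: summed level of the sympathetic marker set (CPM, log axis) in members, in members without the 25 sympathetic barcodes and in other eligible barcodes. Members stand at 5.53, 39.3, 1560 and 1591 CPM, and at 1.39, 0.481, 3.46 and 7.65 CPM without those barcodes.

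Beyond the sympathetic list, the early nephron induction list (Npy) and the smooth and mural list (Rgs5) had 1 gene called each between genotypes in members, and no other list had one, though some stood off the median of all genes. Stroma markers had a median of 1.14 with 9 of 12 above 0, and nephron progenitor markers a median of -1.73 with 0 of 8 above 0. Among barcodes with at least 2000 UMIs, thinned to 2000, 31.6%, 32.4%, 48.6% and 47.3% of members held a stroma UMI. In other eligible barcodes treated alike it was 53.3%, 57.2%, 71.1% and 73.6%. Over all eligible barcodes 7 of 14 stroma markers were higher in mutants (median 1.21) and 8 of 11 progenitor markers lower (median -2.66), and their part in the members was not tested. Nephron segment transcription factors had 0 of 17 called (median 0.16), junction genes 0 of 31 (median 0.46), S phase genes 0 of 20 (median -0.59) and G2 and M phase genes 0 of 20 (median -0.40), beside a median of 0.02 over all genes. All 20 S phase genes had a value below 0, as they did over all eligible barcodes (median -0.61), and the interaction of this list had a median of -0.04. Mutant 1 stood at 1248 summed CPM for it in members, against 3320, 2782 and 2715 CPM elsewhere. Lhx1, Pou3f3 and Emx2, chosen after their values were seen, stood at 751, 533, 248 and 775 CPM, at 242, 124, 127 and 240 CPM and at 245, 241, 299 and 235 CPM, with overlap between the genotypes. Malat1 was higher in both mutant libraries (1.47 ± 0.38, adjusted p = 0.290) and passed without mutant 2 (0.0204). On simulated data the test recovered 4% of genes changed 2-fold and 51% of those changed 4-fold in members, so smaller changes were mostly not detectable. The changed genes were drawn from the more highly expressed genes only, with the same dispersion for every gene. Recovery at low levels was thus not measured.

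Over all eligible barcodes, where the rule plays no part, 213 of 15939 genes (1.34%) differed between genotypes, 156 higher (0.979%) and 57 lower (0.358%) in mutants. In such sums fewer cells of a type and less RNA per cell cannot be told apart. None of the 6 rule genes passed. Sim1 stood at 29.7, 18.5, 12.4 and 22.8 CPM (log2 fold change -0.42, adjusted p = 0.809), Papss2 between 10.5 and 30.2 CPM (0.30, 0.894) and Tfap2b at 89.3, 69.6, 79.0 and 79.4 CPM (-0.00, 0.999). Tspan8 stood at 13.1, 36.5, 16.6 and 9.72 CPM (-0.96, 0.576) and passed without wildtype 1 (0.0315). Of the excluded genes, Ret stood at 12.1, 8.76, 3.01 and 1.53 CPM and was lower in mutants (-2.35 ± 0.48, adjusted p = 0.00628), a call lost without mutant 2 (0.0974). Slc12a1 stood at 23.2, 13.4, 32.5 and 52.2 CPM (1.23 ± 0.38, adjusted p = 0.133), and passed without wildtype 1 (0.0305) or mutant 1 (0.0399). Ret and Slc12a1 exclude barcodes from the set, so their levels bear on which barcodes could be members in each library.

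The genotype difference in members was also set against that in the other eligible barcodes, as an interaction. Those others are sums over many cell types, where cell make-up and level per cell cannot be told apart. Of 12876 genes, 8 (0.0621%) passed, 5 with a mutant effect that was higher in members (0.0388%) and 3 with one that was lower (0.0233%). Uncx stood at 145, 342, 143 and 392 CPM in members and 81.8, 141, 31.7 and 54.8 CPM in other barcodes, so it was lower in the mutant libraries among the others and overlapped between genotypes among members (log2 difference 1.55, adjusted p = 0.0213). Its call was lost without wildtype 1 (0.0701), and no gene passed when a nephron-lineage UMI was required, where 559 had an unadjusted p under 0.05. The number of calls rose to between 29 and 338 when 1 library was left out.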

How the data were processed

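The authors deposited 1 table per library of raw counts, whole numbers per gene and barcode, called UMIs here. Bowtie2 2.2.7 and mm10 are named per the submitters' processing notes. The annotation, strand handling and UMI collapsing are not given in the sources used here. Members and comparison classes were chosen per barcode by the rules in the report, their counts were summed per library and class, and edgeR 4.0.16 (R 4.3.3) tested the sums by its robust quasi-likelihood method after TMM scaling and filterByExpr, with library as a block between classes. P-values were adjusted by Benjamini-Hochberg over all genes tested, with a threshold of 0.05. Levels are TMM-scaled CPM of that comparison, so a gene's value varies slightly between comparisons. Pooled subset levels are unscaled.

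Named genes were the rule, excluded and targeted genes, up to 12 of the largest differences in each direction (no overlap, mean of 20 CPM or more), and up to 4 called members of each list. The text and plots give a part of them, and some items are not reported here. Members and lists were chosen with earlier results of these data known. Doublets were kept, and leaving out each library's top 5% by Scrublet score (scanpy 1.11.5) was an alternative. Others were DESeq2 1.42.0, all genes unfiltered, a replicate block, 3 rule UMIs, 1000 genes, no mitochondrial limit, a required nephron-lineage UMI and leaving out each library. Shares used SciPy 1.17.1 in Python 3.11.15. The tests were tried on simulated data. The replicate numbers were not taken to pair the libraries.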

Additional observations from a re-analysis of the deposited data

Results flagged for a closer look

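For 8 of 12876 genes (0.0621%) the difference between genotypes in members departed from that in the other eligible barcodes, by an interaction term in edgeR's quasi-likelihood method with library as a block and Benjamini-Hochberg adjusted p-values. The fit has few residual degrees of freedom. The other barcodes are sums over many cell types, so a different cell make-up and a different level per cell cannot be told apart. Values below are log2 differences of the genotype effects, members minus others. In 5 genes the effect was higher in members. Cited1, a progenitor cofactor, stood at 47.5 and 67.6 CPM in wildtype and 20.9 and 17.1 CPM in mutant members, but at 116 and 163 against 11.1 and 6.64 CPM in other barcodes (2.52, adjusted p = 0.0120). Uncx stood at 145 and 342 against 143 and 392 CPM in members and at 81.8 and 141 against 31.7 and 54.8 CPM in others (1.55, adjusted p = 0.0213). Rgs5 (3.74, adjusted p = 0.00498), Elavl4 (3.15, 0.0224) and Npy (2.46, 0.0196) were the others, and without the 25 sympathetic barcodes their values were -1.25, 2.02 and 0.30 and none passed.

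In 3 genes the effect was lower in members. The chemokine Cxcl12 stood at 126 and 66.0 against 56.6 and 79.2 CPM in members and at 133 and 79.5 against 269 and 256 CPM in others (-1.68, adjusted p = 0.0120). The growth factor Ptn (-0.95, 0.0270) and Rrbp1 (-1.12, 0.0307) were the others. Without the sympathetic barcodes these 3 genes, Cited1 and Uncx were among 9 called. None of the 8 passed when a nephron-lineage UMI was required, and each of Ptn, Rrbp1, Uncx and Cited1 missed the threshold without at least 1 library.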

How the results depend on the processing

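Of 1559 values of named genes under alternatives, 1384 kept direction and side of the threshold, 145 lost the call, 6 gained one and 24 turned sign. The rules that drop sympathetic barcodes, the shorter comparison rules and the rule without excluded genes were chosen after the data were seen. The share difference of -0.255 points was 0.227 with no mitochondrial limit, 0.134 in the rule without Sim1, 0.0455 at 1000 genes, 0.145 without wildtype 1 and -0.689 without sympathetic barcodes. Genes differing between genotypes in members (21) numbered 65 unfiltered, 13 without top doublet scores, 1 with a nephron-lineage UMI, 0 without sympathetic barcodes and 55 to 165 without 1 library. Over all eligible barcodes (213) leaving out 1 library gave 276 to 435. Calls against loop barcodes (574) were 370 by DESeq2, 1012 unfiltered, 1003 under the shorter rule and 281 to 928 without 1 library. Against ureteric barcodes (202) they were 132 by DESeq2, 413 unfiltered, 262 under the shorter rule and 118 to 190 without 1 library. Of those 262 only 47 were shared with the main calls, and 41 of the 47 had the same direction. Against early nephron barcodes (1299) they were 879 by DESeq2, 2069 unfiltered, 297 under the shorter rule and 703 to 2012 without 1 library. Calls with Sim (119) were 43 by DESeq2, 316 unfiltered, 68 at 3 rule UMIs and 59 to 163 without 1 library. Interaction calls (8) were 56 unfiltered, 13 at 3 rule UMIs, 3 without top doublet scores, 0 with a nephron-lineage UMI and 29 to 338 without 1 library. The cause was not tested, beyond fewer or more genes and samples. A lone library left in a genotype is assumed to vary like the other genotype.

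With the replicate number as a block, 31 genes passed in members, the main 21 among them, and 226 over all eligible barcodes. The deviations of same-numbered libraries had a correlation of -0.097 in members and 0.074 over all eligible barcodes. With 2 libraries per genotype the other pairing gives the same size with the opposite sign, so this cannot decide whether the numbers pair them. The titles do not say so either, and the numbers are not taken to pair the libraries.

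No gene that turned sign between genotypes had passed. Without 1 library the log2 fold changes in members ranged from -0.0099 to 1.39 for Hoxd9, -1.39 to 0.26 for Lhx1, -0.53 to 0.55 for Pou3f3 and -0.064 to 0.28 for Emx2. Over all eligible barcodes they ranged from -0.50 to 0.13 for Sim2, -0.69 to 0.82 for Papss2, -0.49 to 0.26 for Sall3, -0.18 to 0.17 for Tfap2b, -1.08 to 0.22 for Tmem52b and -0.39 to 0.30 for Sostdc1. There Sostdc1 was -0.010 by DESeq2, -0.058 unfiltered, -0.028 with the replicate block, -0.011 without top doublet scores and -0.072 at 1000 genes. Tfap2b was 0.0083 with the replicate block, 0.10 with no mitochondrial limit and 0.040 at 1000 genes, and with no mitochondrial limit Sim2 was 0.022 and Sall3 0.0045. Emx2 against ureteric barcodes was -0.20 under the shorter rule, and the interaction of Rgs5 was -1.25 without sympathetic barcodes.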
